A study of Homo sapiens with 10 samples.

Results

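Leukocyte immunoglobulin-like receptors (LILRs) are surface proteins of myeloid and other white blood cells, encoded side by side in the leukocyte receptor cluster of chromosome 19. Inhibitory members (LILRB) carry tyrosine motifs (ITIMs) in their tails that recruit phosphatases, and so restrain cell activation. Activating members (LILRA) have short tails and pair with an adaptor chain, FCER1G, whose tyrosine motif (ITAM) recruits kinases. The 9 genes described here (LILRB1, LILRB2, LILRB3, LILRB4, LILRA1, LILRA2, LILRA4, LILRA5 and LILRA6) were taken by symbol from the 19590 genes of the expression table, so that 4 were inhibitory and 5 activating members.

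The cells were MV4-11, an established human acute myeloid leukaemia (AML) line with monocytic features. RNA-Seq was made from 4 control libraries, of cells infected with a control CRISPR vector, and 4 libraries of IRF8 KO cells, infected with a vector that cuts IRF8, a transcription factor of the monocyte and dendritic cell lineages. Both carried Cas9 and were selected with puromycin. The IRF8 KO lines were grown from limiting dilutions for 2 guide RNAs, and which line each library came from is not given in the labels, nor is it stated that replicates were separate cultures, so that p-values measure only the spread between these libraries. Reads on genes ranged from 48762519 to 65519047 in control and from 39560072 to 54048461 in IRF8 KO libraries.

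All values below are normalized counts, which were scaled for depth by the authors but not for transcript length, so that levels were compared between libraries and not between genes. A gene was called lower or higher in IRF8 KO when its adjusted p was below 0.05 (limma on log2(normalized count + 1), Benjamini-Hochberg adjustment over 13110 genes with a mean of at least 10), and log2 fold changes are IRF8 KO minus control on that scale. IRF8 itself was measured at 36891, 15192, 43015.5 and 22535 in control replicates 1 to 4 and at 6377, 2401, 12903 and 7819.7 in IRF8 KO replicates 1 to 4. The groups did not overlap, the IRF8 KO mean was 25.1% of the control mean, and the log2 fold change was −2.11 (SE 0.51, limma adjusted p = 0.022). This call was lost without control replicate 1 (adjusted p = 0.058), control replicate 3 (0.057) or IRF8 KO replicate 1 (0.053). All 9 myeloid markers examined were above 10 in at least one library. CD14 was the lowest of them, at 1.88 to 12.9 in control and 13.8 to 25.6 in IRF8 KO libraries. T cell markers CD3D, CD3E and CD2 summed to at most 20.3 in any library, and the B cell marker MS4A1 was at 0 in all 8 libraries. Of the other lists, NK cell markers summed to 7875 to 21593 in control and 3027 to 6370 in IRF8 KO libraries, epithelial markers to 974 to 3189 and 56.5 to 233, plasmacytoid dendritic cell markers to 4517 to 5863 and 1648 to 3512, B cell markers to 177 to 492 and 167 to 919, and fibroblast markers to 31.1 to 87.1 and 22.4 to 417. Myeloid markers summed to 78364 to 91583 in control and 101494 to 339112 in IRF8 KO libraries. The members of a list did not move together. Among myeloid markers MPO (log2 fold change 4.08), ITGAM (3.03) and PTPRC (1.34) were called higher, LYZ reached 248604 in IRF8 KO replicate 1 (3.09, limma adjusted p = 0.060), and CD33 (−0.34), CSF1R (−0.27) and FLT3 (−0.21) were not called. NCAM1 was lower (−2.24) and NKG7 was not called (−0.73) among NK cell markers, the epithelial sum was nearly all KRT8 (−3.51), and of the plasmacytoid dendritic cell markers IL3RA was lower (−2.01) while TCF4 was not called (0.43). With the replicate number added to the limma fit as a block, LYZ (adjusted p = 0.0021) and CD14 (log2 fold change 1.35, 0.048) were also called higher. CD33 (0.049) and NKG7 (0.039) were then called lower. CD14 had a mean of 8.03 in control and 19.3 in IRF8 KO libraries, and passed the filter through its IRF8 KO level only. The part of these differences in the LILR values was not tested.

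The promoter sequences of the members are shown before their values, because IRF8 binds DNA with ETS factors such as PU.1 at composite elements, here searched as the ETS core GGAA, any 2 bases and then GAAA (called the composite motif). The RefSeq windows (GRCh38.p14, 250 bases before to 50 after each annotated start) held 13 windows for 7 of the 9 members. LILRA4 and LILRA6 were not matched. On either strand, the composite motif was found in 2.82% of all 35116 windows. Among the member windows it was found in LILRB4 alone, 2 times, at 133 to 124 bases before the start and, on the other strand, at 96 to 87 bases before it. Of all windows, 24 (0.0683%) held it 2 or more times. The 250 bases before the LILRB4 start (chr19:54662735-54662984, plus strand) are printed with both matches in capitals.
LILRB4: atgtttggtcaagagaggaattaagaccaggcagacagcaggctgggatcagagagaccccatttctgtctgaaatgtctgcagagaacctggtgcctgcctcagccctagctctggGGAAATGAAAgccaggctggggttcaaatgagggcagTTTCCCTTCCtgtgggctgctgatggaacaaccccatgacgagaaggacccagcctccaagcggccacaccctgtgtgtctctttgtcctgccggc

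Windows of 5 other LILR genes aligned with that of LILRB4, and the 24 bases around its first match are set beside theirs to show how the letters differ, with the 10 aligned bases in capitals.
LILRB4 (chr19:54662844-54662867, plus strand): agctctggGGAAATGAAAgccagg
LILRB5 (chr19:54257354-54257377, minus strand): atccctggGGAAATGAGAgccagg
LILRB3 (chr19:54223138-54223161, minus strand): agccctggGGAAATCAGAgccagg
LILRB2 (chr19:54280680-54280703, minus strand): agctctaaAAGAATGAGAgtcagg
LILRA1 (chr19:54594038-54594061, plus strand): agctctaaAAGAATGAGAgtcagg
LILRA2 (chr19:54573696-54573719, plus strand): agccctaaAGGTATGACAgccagg
Counting from 1 at the 5′ end of the capitals, with the LILRB4 base given first, LILRB5 differed by A9G, LILRB3 by G7C and A9G, LILRB2 and LILRA1 by G1A, G2A, A3G and A9G, and LILRA2 by G1A, A3G, A4T and A9C.

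The stretch around the second match is printed in the same way.
LILRB4 (chr19:54662881-54662904, plus strand): gagggcagTTTCCCTTCCtgtggg
LILRB5 (chr19:54257322-54257345, minus strand): gagggcagTTCCCCTTCCtgtggg
LILRB3 (chr19:54223107-54223130, minus strand): ggtggcagTTCCTCTTCCtgtggg
LILRB2 (chr19:54280649-54280672, minus strand): gagggcagTTCCGCTTCTtgtgtg
LILRA1 (chr19:54594069-54594092, plus strand): tagggtagTTCTGCTTCCtgtgtg
LILRA2 (chr19:54573727-54573750, plus strand): gagggcagTTGCACTTCCtgtgtg
Here LILRB5 differed by T3C, LILRB3 by T3C and C5T, LILRA2 by T3G and C5A, LILRB2 by T3C, C5G and C10T, and LILRA1 by T3C, C4T and C5G. A match describes these letters and is not a measured binding site.

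LILRB1, LILRA1, LILRB2 and LILRA5 had windows of another kind. They are printed to show their letters, and the window of LILRA5 was less like that of LILRB1 than those of LILRA1 and LILRB2 were. Whether these letters bear on the values below was not tested. The 100 bases before the start are given, with capitals where a letter was not aligned to the same letter of LILRB1. Capitals thus include inserted or unaligned bases as well as differing ones, and bases missing against LILRB1 are not marked.
LILRB1 (chr19:54630384-54630483, plus strand): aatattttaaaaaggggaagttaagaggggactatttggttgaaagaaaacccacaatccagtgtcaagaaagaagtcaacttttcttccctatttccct
LILRA1 (chr19:54593532-54593631, plus strand): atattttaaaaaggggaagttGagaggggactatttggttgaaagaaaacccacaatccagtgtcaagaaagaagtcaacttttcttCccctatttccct
LILRB2 (chr19:54281111-54281210, minus strand): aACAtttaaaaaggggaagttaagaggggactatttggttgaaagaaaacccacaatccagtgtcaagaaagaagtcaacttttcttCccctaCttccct
LILRA5 (chr19:54313167-54313266, minus strand): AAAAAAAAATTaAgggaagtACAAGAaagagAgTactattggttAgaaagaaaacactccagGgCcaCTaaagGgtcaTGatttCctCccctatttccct
Over the whole window, LILRA1 matched LILRB1 at 282 of 299 aligned bases (94.3%), LILRB2 at 273 of 298 (91.6%) and LILRA5 at 226 of 274 (82.5%). Other motifs searched on both strands were the interferon-type element of GAAA, any 2 bases and GAAA (3.57% of all windows) and the reversed order of GAAA, any 2 bases and GGAA (2.77%), found in no member window, and the ETS core GAGGAA (27.9%), found in windows of LILRA5, LILRB1, LILRB3 and LILRB4. A match to the latter overlapped the second aligned stretch in LILRB3.

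Of the 9 LILR genes, 8 passed the filter on low values, 4 were called lower in IRF8 KO and 0 higher, while 9.56% of all tested genes were called lower and 8.65% higher (18.2% in either direction). At the study's thresholds (unadjusted p below 0.01 and at least 2-fold) the counts were again 4 lower and 0 higher, beside 6.12% and 4.78% of all tested genes, and without the filter 7.46% of 17393 genes were called lower. The 4 lower genes were LILRB4, LILRA5, LILRA1 and LILRB1, that is 2 inhibitory and 2 activating members. Of these, LILRA5 passed the filter through its control level only. Of the 8 tested members, these 4 were lower without overlap between control and IRF8 KO libraries and 0 were higher without overlap. Over all tested genes the shares were 13% and 12.3%. The calls rest on the same libraries, so the lack of overlap is not separate support for them. Blocking on replicate number left the members' counts at 4 lower and 0 higher, beside 14.6% and 14.2% of all tested genes. In the higher direction, 1 member (LILRB2) had an unadjusted limma p below 0.05, edgeR called 0 and DESeq2 called 1, beside 12.8% of all tested genes called higher by DESeq2. The median log2 fold change was −1.02 over the 8 members and −0.00 over all tested genes. In bulk RNA, fewer cells expressing a gene and less RNA per cell cannot be told apart.

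**Figure D1:**
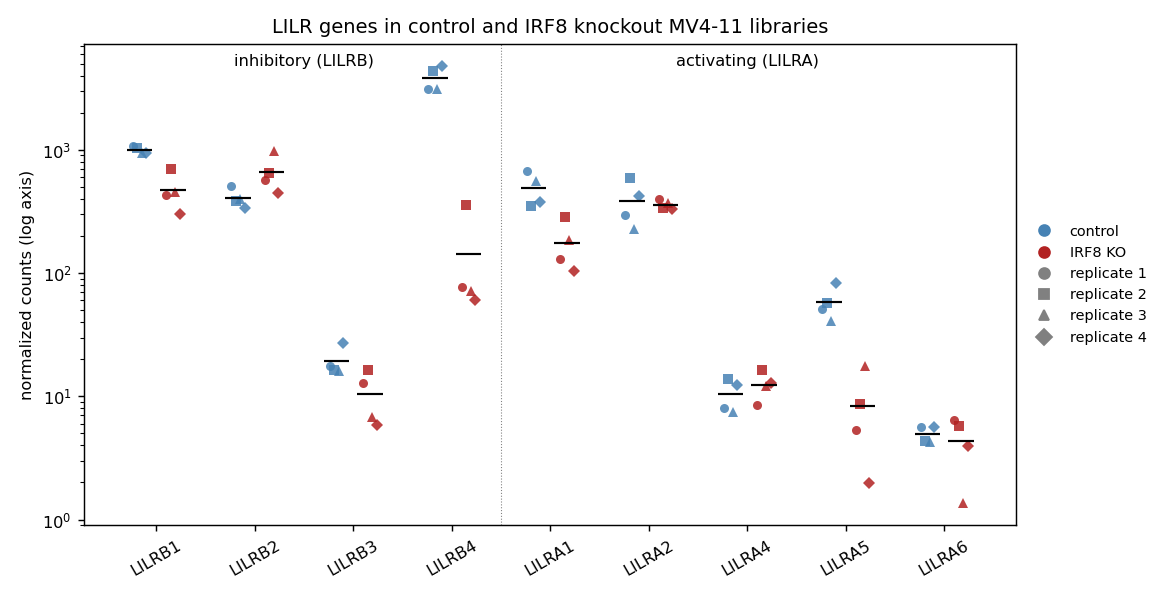
Normalized counts (log axis) of the 9 LILR genes in each library, with inhibitory members on the left and activating members on the right, points for the 4 control and 4 IRF8 KO libraries, shapes for replicate numbers and bars for group means. All IRF8 KO points of LILRB4 (61.0 to 357) sit below its lowest control (3105), whereas those of LILRB2 and LILRA2 lie among or above their controls.

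LILRB4, an inhibitory receptor of monocytic cells that binds apolipoprotein E, took the most reads of the family in control and had the largest fall. Control replicates 1 to 4 gave 3105, 4359, 3107 and 4795. IRF8 KO replicates 1 to 4 gave 76.7, 357, 71.8 and 61.0. Every IRF8 KO library was far below every control, and replicate 2 stood above the other IRF8 KO libraries. The mean fell from 3842 ± 868 to 142 ± 143 (SD, n = 4 each), or to 3.68% of control. The log2 fold change was −5.15 (SE 0.52, 95% interval −6.33 to −3.98, limma adjusted p = 0.00036), and the exact two-sided permutation p was 0.0286, the smallest that 4 against 4 libraries can give. By log2 fold change LILRB4 ranked 54 from the lowest of 13110 genes, and 20 among the 7584 genes with a control mean of at least 1000. Leaving out each library in turn gave −5.74, without IRF8 KO replicate 2, to −4.90.

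LILRB1 is an inhibitory receptor for HLA class I molecules on many leukocytes. Its counts were 1069.9, 1031, 942 and 934 in control replicates 1 to 4 and 426, 703, 455 and 303 in IRF8 KO replicates 1 to 4. The control libraries were close together and all IRF8 KO libraries were below them, with replicate 2 the nearest. The mean fell from 994 ± 66.9 to 472 ± 168 (SD, n = 4 each), and the log2 fold change was −1.14 (SE 0.24, 95% interval −1.67 to −0.60, limma adjusted p = 0.011).

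LILRB2, which also binds HLA class I and in addition angiopoietin-like proteins, was not called. Control replicates 1 to 4 had 510.0, 381, 397 and 339, and IRF8 KO replicates 1 to 4 had 568, 649, 969.6 and 444. Of the IRF8 KO libraries, 3 lay above all controls and replicate 4 lay among them. The log2 fold change was 0.65 (SE 0.25, 95% interval 0.08 to 1.21, limma adjusted p = 0.11, exact permutation p = 0.0571). DESeq2 on the recovered reads called it higher (log2 fold change 0.69, adjusted p = 0.042). LILRB1 and LILRB2 thus had log2 differences of opposite sign, and of the reads on this pair LILRB2 took 26.6% to 32.3% in control and 48.0% to 68.1% in IRF8 KO libraries.

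LILRB3, an inhibitory receptor of granulocytes and monocytes, was near the detection floor. It had 17.7, 16.4, 16.1 and 27.3 in control replicates 1 to 4 and 12.8, 16.2, 6.77 and 5.90 in IRF8 KO replicates 1 to 4, from 5 to 29 reads a library. The groups overlapped by a narrow margin. The log2 fold change of −0.91 had a 95% interval of −1.82 to 0.01 and was not called (limma adjusted p = 0.16). LILRB3 shares most of its extracellular sequence with LILRA6, so reads may have been split between them and the values of both are uncertain.

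Among the activating members, LILRA5, a receptor of monocytes and neutrophils, had the largest fall. It had 51.5, 56.9, 40.8 and 82.9 in control replicates 1 to 4, against 5.33, 8.60, 17.6 and 1.97 in IRF8 KO replicates 1 to 4. All IRF8 KO libraries were below all controls, on 2 to 13 reads. The mean was 58.0 ± 17.9 in control and 8.38 ± 6.72 in IRF8 KO (SD, n = 4 each), or 14.4% of control. The log2 fold change was −2.91 (SE 0.55, 95% interval −4.15 to −1.66, limma adjusted p = 0.0072). Its IRF8 KO mean was under the filter of 10, so that it was tested only because of its control level.

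LILRA1, an activating receptor that can bind HLA class I heavy chains, was lower as well. Control replicates 1 to 4 had 667, 351, 558 and 376, and IRF8 KO replicates 1 to 4 had 131, 285, 187 and 104. Replicate 2 was the lowest of the controls and the highest of the IRF8 KO libraries, and the groups came closest there without overlapping. The mean went from 488 ± 151 to 177 ± 79.8 (SD, n = 4 each). The log2 fold change was −1.51 (SE 0.35, 95% interval −2.30 to −0.73, limma adjusted p = 0.017). Without control replicate 1 its adjusted p was 0.0500462, just past the threshold.

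LILRA2, an activating receptor that recognises immunoglobulins cut by microbial proteases, was not called. Control replicates 1 to 4 had 295, 588, 228 and 421, and the IRF8 KO libraries had 397, 337, 367 and 331. The IRF8 KO values fell within the control range. The log2 fold change was −0.01 (SE 0.28, 95% interval −0.65 to 0.63, limma adjusted p = 0.99), but it was 0.56 within replicate numbers 1 and 3 and −0.57 within numbers 2 and 4. Its sign also turned with quantile normalization (0.08) and without control replicate 2 (0.23), control replicate 4 (0.07), IRF8 KO replicate 2 (0.02) or IRF8 KO replicate 4 (0.03).

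LILRA4, a receptor of plasmacytoid dendritic cells, was barely detected, at 8.04, 13.8, 7.52 and 12.2 in control and 8.53, 16.2, 12.2 and 12.8 in IRF8 KO libraries. Its groups overlapped (log2 fold change 0.25, 95% interval −0.56 to 1.06, limma adjusted p = 0.70). LILRA6, at 4.30 to 5.65 in control and 1.35 to 6.39 in IRF8 KO libraries, did not pass the filter and was not tested. The same was true of LILRB5, a further inhibitory gene of the family, at 3.77 to 12.1 and 2.13 to 4.92. LILRA3 was not analysed here.

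Because the members that changed had very different counts, the make-up of the LILR reads in each library was compared next. Summed over the 9 genes, normalized counts were 5301 to 6993 in control and 1267 to 2378 in IRF8 KO libraries. The LILRB sum was 4462 to 6096 in control and 814 to 1725 in IRF8 KO libraries, and the LILRA sum 839 to 1027 and 454 to 653. Inhibitory members took 82.1%, 85.1%, 84.2% and 87.2% of the LILR reads in control replicates 1 to 4. In IRF8 KO replicates 1 to 4 they took 66.4%, 72.5%, 72.0% and 64.2%. The widest 95% Wilson interval, which covers counting error only, was 61.6% to 66.8%, in IRF8 KO replicate 4. The mean share went from 84.6% ± 2.11 to 68.8% ± 4.13 (SD, n = 4 each), and no IRF8 KO library reached the control range. Among the inhibitory members, LILRB4 alone had a lower mean share in IRF8 KO (61.4% to 6.99%). Mean shares were higher for LILRB1 (16.2% to 25.3%), LILRB2 (6.71% to 35.9%) and LILRB3 (0.311% to 0.564%). The inhibitory share without LILRB4 was not calculated, so its fall is not shown for inhibitory members other than LILRB4.

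**Figure D2:**
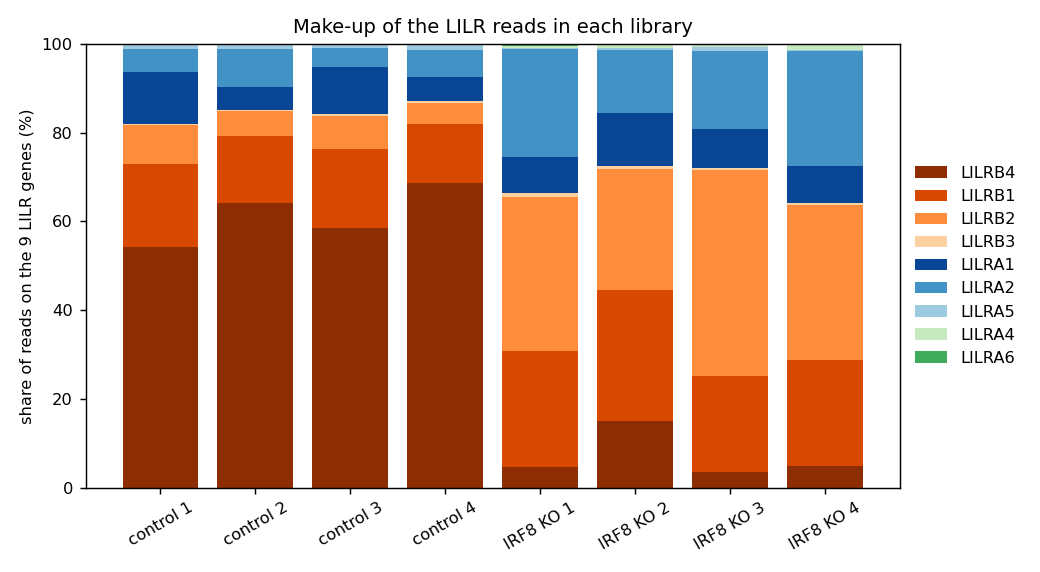
Share of the reads on the 9 LILR genes (percent) taken by each gene in each library, stacked, with inhibitory members in orange and brown and activating members in blue and green. LILRB4 fills 54.2% to 68.6% of each control bar and 3.44% to 15.0% of each IRF8 KO bar, and LILRB2 goes from at most 8.90% to at least 27.3%.

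LILRB4 differed most in its share, which went from 54.2% to 68.6% in control down to 3.44% to 15.0% in IRF8 KO libraries. LILRB2 took 4.85% to 8.90% of the LILR reads in control and 27.3% to 46.4% in IRF8 KO libraries, and became the member with the most reads in IRF8 KO replicates 1, 3 and 4. LILRB1 went from 13.4% to 18.7% up to 21.8% to 29.6%, although its own counts fell, and LILRA2 from 4.29% to 8.65% up to 14.2% to 26.1%. Shares within a sum move against each other, so a higher share does not mean a higher level. By single genes, inhibitory and activating members did not separate: 2 of 4 tested members of each kind were called lower, with median log2 fold changes of −1.02 for LILRB and −0.76 for LILRA. The LILRA count and median include LILRA5, which passed the filter through its control level only.

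The LILR genes lie in 2 blocks, with LAIR1, LAIR2 and several unrelated genes between them. To show whether the fall extended over the cluster, the 5 tested genes between the blocks and the 10 tested genes on each side were taken in chromosomal order. Of these 25 neighbours, 0 were called lower by limma and 2 higher, beside 9.56% and 8.65% of all tested genes. Their median log2 fold change was −0.01. At an unadjusted limma p below 0.05, 2 were lower (CNOT3 and TSEN34), while edgeR called 0 and DESeq2 called 1 lower. With the replicate block, 6 were called, 2 of them lower (TSEN34, adjusted p = 0.044, and SYT5, 0.049) and 4 higher (NDUFA3, 0.0042, LAIR1, FCAR and TMC4). Over all tested genes, the block called 14.6% lower and 14.2% higher. On all of chromosome 19, 110 of 1022 tested genes were called lower and 64 higher (median −0.08). The next tested gene after LILRB4, with untested genes between them, was FCAR, the activating receptor for IgA, which was higher in IRF8 KO. It had 0, 0.863, 0 and 0.942 in control libraries (0 or 1 read each) and 184, 13.4, 12.2 and 18.7 in IRF8 KO libraries (limma adjusted p = 0.0078). The fitted log2 fold change of 4.39 depends on the pseudocount, and it was 3.49 without IRF8 KO replicate 1, whose level was far above the others. FCAR passed the filter through its IRF8 KO level only.

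**Figure D3:**
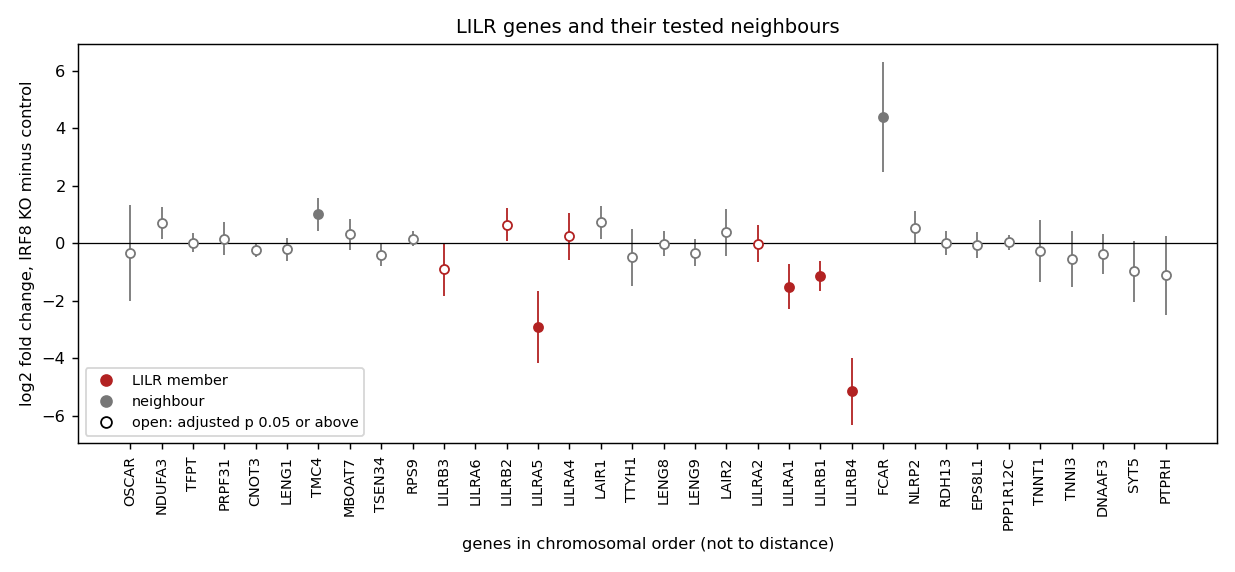
Log2 fold change (IRF8 KO minus control) of the LILR genes (red) and their tested neighbours (grey) in chromosomal order, not to distance, with 95% intervals and filled points where the adjusted p was below 0.05. The 4 called LILR members lie below 0, and the called neighbours TMC4 and FCAR lie above 0; LILRA6 has no point because it was not tested.

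TMC4, a transmembrane channel-like gene, was the other neighbour called, at 14.9 ± 1.57 in control and 31.1 ± 1.35 in IRF8 KO libraries (SD, n = 4 each; log2 fold change 1.02, limma adjusted p = 0.024). The call was lost without control replicate 1, 2 or 4 or IRF8 KO replicate 4 (adjusted p = 0.052 to 0.072). LAIR1, an inhibitory collagen receptor that lies between the LILR blocks, was named after its values were seen. It had a mean of 9093 ± 3392 in control and 14415 ± 1866 in IRF8 KO libraries, with a log2 fold change of 0.73 (95% interval 0.16 to 1.30) that was not called (limma adjusted p = 0.080) but was with the replicate number as a block (0.013) and without control replicate 2 (0.023).

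Of 12 genes for LILR ligands, 1 was called lower and 1 higher, beside 9.56% and 8.65% of all tested genes. The median log2 fold change of the list was −0.24. ANGPTL2, a secreted ligand of LILRB2, fell from 180 ± 65.0 to 9.79 ± 7.99 (SD, n = 4 each; log2 fold change −4.31, SE 0.57, limma adjusted p = 0.0013). Its IRF8 KO mean rested on 2 to 22 reads and was under the filter of 10, so that it was tested only because of its control level. B2M, the light chain of HLA class I, rose from 38427 ± 4284 to 77468 ± 21384 (0.98, SE 0.19, adjusted p = 0.0077). The 6 HLA class I heavy chain genes, whose reads can be affected by their similarity and polymorphism, had log2 fold changes of −0.52 to 0.17 and none was called. With the replicate block, 3 ligand genes were lower and 1 higher, beside 14.6% and 14.2% of all tested genes. The added calls were HLA-E (−0.42, limma adjusted p = 0.028) and BST2 (−0.59, 0.035), the latter the ligand of LILRA4. APOE, the LILRB4 ligand, was low in both groups at 23.4 ± 14.6 and 30.3 ± 12.2 (0.44, 95% interval −0.70 to 1.57, adjusted p = 0.61).

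Of 13 genes of the signalling chain below these receptors, 12 were tested. Of these, 4 were called lower and 0 higher, beside 9.56% and 8.65% of all tested genes, with a median log2 fold change of −0.41. In the higher direction, 1 gene (YES1) had an unadjusted limma p below 0.05, edgeR called 0 and DESeq2 called 1. With the replicate block, 6 were lower and 1 higher, beside 14.6% and 14.2% of all tested genes. The added calls included the kinase genes LYN (limma adjusted p = 0.049) and, in the higher direction, YES1 (0.033). Phosphatases that bind ITIMs were among the lower genes. PTPN6 (SHP-1) fell from 25122 ± 1064 to 14422 ± 2506 (SD, n = 4 each; log2 fold change −0.82, SE 0.14, limma adjusted p = 0.0041), and INPP5D (SHIP-1) from 16765 ± 3330 to 9073 ± 437 (−0.87, SE 0.15, adjusted p = 0.0049). PTPN11 (SHP-2) was not called (−0.24, 95% interval −0.57 to 0.10, adjusted p = 0.32). The kinase gene SRC fell most, from 2341 ± 321 to 532 ± 99.4 (−2.14, SE 0.17, adjusted p = 0.00012). FCER1G, the adaptor of the activating members, named after its values were seen, had 1591 ± 575 and 1548 ± 314 (0.01, 95% interval −0.58 to 0.61, adjusted p = 0.98), a difference whose sign changed with upper quartile scaling, edgeR and DESeq2.

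LILRB4 is known in monocytic AML as the start of a chain through SHP-2 and NF-kB to the urokinase receptor PLAUR and arginase. PLAUR fell from 4228 ± 661 to 1566 ± 324 (SD, n = 4 each; log2 fold change −1.44, SE 0.18, limma adjusted p = 0.0010). NFKB1 was not called at 2371 ± 461 and 3390 ± 497 (0.52, 95% interval 0.13 to 0.92, adjusted p = 0.070), but passed the threshold with the replicate block (0.0090), by DESeq2 (0.028) and without IRF8 KO replicate 2 (0.042). ARG1 had a mean of 1.81 and 2.24 and was not tested.

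Other receptors of the same 2 kinds were set beside the LILRs. Of 16 inhibitory receptor genes outside the family, 14 were tested, 6 were called lower and 1 higher, with a median log2 fold change of −0.62. Over all tested genes, 9.56% were called lower and 8.65% higher. With the replicate block, 8 of the list were lower and 2 higher, beside 14.6% and 14.2% of all tested genes. The sialic acid receptors SIGLEC9 (221 ± 64.3 to 19.7 ± 3.31, −3.39, limma adjusted p = 0.00014), SIGLEC7 (251 ± 58.3 to 28.9 ± 12.4, −3.13, adjusted p = 0.00041) and SIGLEC5 (34.7 ± 12.5 to 7.38 ± 1.54, −2.04, adjusted p = 0.0045) fell most. SIGLEC5 had 6 to 7 reads in IRF8 KO libraries, a mean under the filter of 10, and was tested only because of its control level. CLEC12A, an inhibitory lectin of myeloid cells, rose from 72.5 ± 42.8 to 1239 ± 1325 (3.74, adjusted p = 0.012), with a spread in IRF8 KO as large as its mean and a log2 fold change of 3.09 without IRF8 KO replicate 1.

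Of 14 activating receptor genes outside the family, 10 were tested, 2 were called lower and 2 higher, with a median of −0.37. Over all tested genes, 9.56% were called lower and 8.65% higher. With the replicate block, 4 of the list were lower and 2 higher, beside 14.6% and 14.2% of all tested genes. SIRPB1 fell from 2934 ± 252 to 694 ± 94.9 (log2 fold change −2.08, limma adjusted p = 4.1e-05). SIGLEC14 fell from 355 ± 96.2 to 102 ± 44.2 (−1.85, adjusted p = 0.0069); it is nearly identical to SIGLEC5 in part, so the split of reads between them is uncertain. CLEC5A, a lectin that pairs with an ITAM adaptor, rose from 179 ± 61.7 to 2810 ± 3915 (3.17, adjusted p = 0.020). IRF8 KO replicate 1 had 8681 and the others 757 to 948, and without it the log2 fold change was 2.33 (adjusted p = 0.0039). FCAR was the other gene called higher. DESeq2 gave no adjusted p for CLEC5A or FCAR, and so called neither. SIRPA, an inhibitory receptor for CD47 named after its values were seen, also fell (11825 ± 1084 to 3630 ± 446, −1.71, adjusted p = 7.9e-05). SRC, SIRPA and SIRPB1 are genes of chromosome 20, on which 214 of 351 tested genes were called lower, with a median log2 fold change of −0.92. The part of this in their values was not tested.

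**Figure D4:**
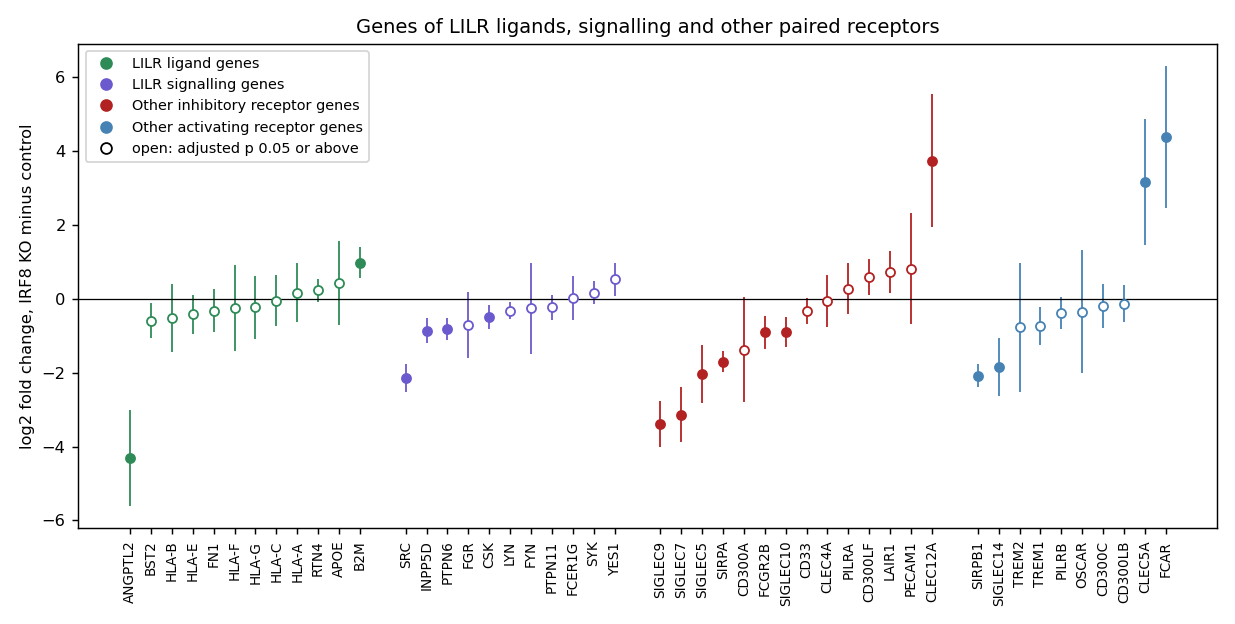
Log2 fold change (IRF8 KO minus control) of tested genes for LILR ligands, LILR signalling (without a gene not reported here), other inhibitory and other activating receptors, each list ordered by its value, with 95% intervals and filled points where the adjusted p was below 0.05. Called genes lie on both sides of 0 in each list but the signalling genes, where the 4 called genes are all below 0.

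Genes whose log2 values followed LILRB4 most closely over the 8 libraries were searched among 10981 genes with a mean of at least 100. The 5 highest were PEA15 (Pearson r = 0.995), IGLL5 (0.993), SPNS2 (0.993), ZNF337 (0.992) and TTYH3 (0.992). All points share the 2 groups, so that any gene with a clear difference between them scores high, and no p is given. IGLL5, an immunoglobulin lambda-like gene, was closest to LILRB4 in the size of its fall, from 1332 ± 142 to 42.0 ± 39.1 (SD, n = 4 each). ZNF337 (log2 fold change −1.74) is a gene of chromosome 20, where 214 of 351 tested genes were called lower. The part of this in its values was not tested. Like LILRB4, each of the 5 had its highest IRF8 KO value in replicate 2. The choice by correlation over the same libraries favours this, so it is not a separate result.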

How the data were processed

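RNA-Seq libraries of MV4-11 cells (4 control, 4 IRF8 KO) were analysed. Per the paper's methods, stranded mRNA libraries were aligned with RNA-Star, counted on GENCODE genes with featureCounts and normalised with DESeq2. The submitters' processing notes name hg19 and hg38 without a role, so no coordinates of the files are given. The deposited signal values are the authors' counts divided by size factors. All values (100%) came within 0.01 of whole reads after division by the value of 1 read, and these reads served the edgeR and DESeq2 alternatives. Columns named WT were taken as the control of the same number, and 0 columns had no sample. A table of the authors' own fold changes and p-values was not used, and the ChIP-Seq samples are not analysed here.

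limma 3.58.1 (R 4.3.3; trended, robust) was fitted to log2(normalized count + 1) of the 13110 genes whose mean reached 10, and p-values were adjusted by Benjamini-Hochberg. Alternatives were pseudocounts of 0.5 and 5, no filter or a minimum of 100, upper quartile and quantile scaling, edgeR 4.0.16, DESeq2 1.42.0, the replicate number as a block, each library left out, and the study's thresholds (p below 0.01 and 2-fold). Deviations from group means correlated between same-numbered control and IRF8 KO libraries (0.37, 0.48, 0.45 and 0.50 for numbers 1 to 4, across genes). The replicate number was used as a block in an alternative, and the main fit had no such term. The numbers did not mark clear pairs. IRF8 KO replicate 1 correlated more with control replicate 3 (0.41), and IRF8 KO replicate 3 with control replicate 1 (0.47). Numbers 1 and 3, and 2 and 4, deviated together. Control replicates 1 and 3 had the most alike reads of any library pair within a group (chi-square per degree of freedom 7.08, next 41.4). Promoter windows and gene order came from RefSeq (GRCh38.p14), with a chromosome for 13010 tested genes.

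The members, lists and motifs were chosen with earlier results of these data known. Named genes were the members, LILRB5, IRF8, up to 3 called genes with the largest falls and rises in each list, the LILRB4 chain, and the 5 genes most like LILRB4. FCER1G, LAIR1, SIRPA, CNOT3, TSEN34, YES1, HLA-E, BST2, LYN, NDUFA3 and SYT5, and RSAD2 and CMPK2 in the closing section, were added after their values were seen. A marker list and a signalling gene examined in these libraries are not reported here.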

Additional observations from a re-analysis of the deposited data

Results flagged for a closer look

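Of 64 groups of 4 libraries examined, 4 had a library far from the others (Dixon's gap over range above its 95% critical value), where chance gives about 1 in 20. IRF8 KO replicate 2 was the highest for LILRB4 (357 normalized counts, next 76.7, gap over range 0.947). Control replicate 4 was the highest for LILRB3 (27.3, next 17.7, gap over range 0.858). IRF8 KO replicate 1 was the highest for FCAR (184, next 18.7, gap over range 0.962) and for CLEC5A (8681, next 948, gap over range 0.976).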

How the results depend on the processing

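LILRB4, LILRB1 and LILRA5 kept their direction and call under every alternative run for them (18, 18 and 17). LILR members called lower numbered 3 to 4 when each library was left out, and DESeq2 called 1 higher (LILRB2). Ligand genes called, 2 in all, were 1 with a minimum mean of 100, 4 with the replicate block and 1 at the study's thresholds. Signalling genes called, 4 in all, were 7 with the replicate block and 1 at the study's thresholds. Neighbours called, 2 in all, were 0 with a minimum mean of 100, 6 with the replicate block and 1 to 4 when each library was left out (1 without control replicate 1 or 4 or IRF8 KO replicate 4, 4 without IRF8 KO replicate 2). IRF8 gave −2.46 to −1.65 when each library was left out. LILRA2 reversed to 0.083 with quantile normalization and ranged from −0.23 to 0.23 without single libraries. FCER1G reversed to −0.0036 with upper quartile scaling, −0.053 with edgeR and −0.038 with DESeq2, and ranged from −0.14 to 0.20 without single libraries. The share of LILR reads on LILRB genes differed by −17.1 to −14.3 percentage points without single libraries. It was not recalculated without LILRB4, so this range does not cover the inhibitory members apart from LILRB4. The causes were not tested. Over all genes, 1253 were called lower and 1134 higher, against 1912 and 1857 with the replicate block, 1723 and 1679 with DESeq2, 802 and 627 at the study's thresholds, and 910 and 755 without control replicate 1. Besides these counts and the genes given with the block in the report, it changed no call of the tested LILR members, IRF8, the genes most like LILRB4, CNOT3, RSAD2 or CMPK2. Depth limits LILRB3, LILRA4, LILRA5 and LILRA6, which rest on few reads.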

Other observations

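The promoter motif found 2 times in LILRB4 was set beside the calls of all genes, as a description. Of 376 tested genes with this composite motif (GGAA, any 2 bases, GAAA) in a promoter window, 11.4% were called lower and 11.4% higher in IRF8 KO, against 9.49% and 8.51% of the 10360 tested genes with any window. Of the 10 tested genes with 2 or more matches in a window, 2 were called lower and 1 higher, and LILRB4 had the lowest log2 fold change among them. The interferon-induced genes RSAD2 and CMPK2 also belong to these 10, and neither was called.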
